A study of Drosophila melanogaster with 12 samples.

Results

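The proteasome genes were taken as every gene in the deposited expected-count tables whose symbol begins with Prosalpha, Prosbeta, Rpn or Rpt followed by a number, which gave 45 genes of 14251. They comprised 14 genes of the core, 10 of the base and 8 of the lid, which are called canonical here, and 13 paralogs whose symbols carry R or T after the number. The RNA came from the ventral nerve cord, the posterior part of the larval central nervous system, of wandering third-instar Drosophila melanogaster grown at 25C without treatment. WT larvae carried the allele kdm5 140 rescued by a gKDM5 transgene, L854F larvae were kdm5[L854F] homozygotes, and JmjC larvae were kdm5[JmjC*] homozygotes, which the labels call demethylase inactive. Each genotype had 4 samples. As labelled, only WT carries the transgene, so the allele and the transgene cannot be told apart in a comparison with WT. Sex, the number of larvae per sample and any batch are not given in the labels, so p-values measure only the spread between these samples.

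The proteasome is the large protease of the cytoplasm and nucleus that degrades proteins marked with ubiquitin. Its core is a barrel of stacked rings, in which alpha subunits (Prosalpha) form the gate and beta subunits (Prosbeta) hold the protease sites inside. A regulatory cap sits on the barrel: its base contains the Rpt ATPases, which unfold the substrate and thread it inwards, together with scaffold and ubiquitin-receptor subunits, and its lid removes the ubiquitin chains. In Drosophila, several subunits have additional copies expressed mainly in the testis. Neurons depend on the proteasome for protein turnover at synapses, and Kdm5 is a chromatin protein with a histone demethylase domain.

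Libraries held between 15103631 and 16850705 counts, and between 9037 and 9353 genes had at least 10 counts. Levels are given as CPM, the counts of a gene per 1000000 counts of its scaled library. Levels of different genes are compared as CPM per kilobase of the deposited transcript length. Class sums, marker sums and shares of counts are not divided by length. Kdm5 itself stood at 715 ± 33.9 CPM in WT, 774 ± 30.5 in L854F and 772 ± 37.9 in JmjC (mean ± SD, n = 4), a difference from WT of 0.11 on the log2 scale in either mutant (edgeR quasi-likelihood test, adjusted p = 0.309 and 0.201); since the alleles alter the protein, this level does not check the labels. The neuron markers elav, brp, nSyb, Syt1 and Syx1A were present in every sample, with a summed level of 3015 to 3559 CPM in WT, 3069 to 3523 in L854F and 3169 to 3773 in JmjC. The summed level of 4 glial markers was 603 to 699 CPM in WT, 580 to 716 in L854F and 1042 to 1188 in JmjC. Of these 4, alrm was at 679 to 776 CPM in JmjC and 196 to 258 in WT, while repo and nrv2 overlapped and moody was lower in JmjC. The summed level of 4 neuroblast markers was 201 to 223 CPM in WT, 181 to 198 in L854F and 155 to 186 in JmjC. Within it, mira was lower in JmjC (85.6 to 107 CPM) than in WT (at most 152), ase was higher (37.0 to 42.0 against 30.4 to 36.5), and dpn and wor overlapped. The sum of 3 hemocyte markers was 91.4 to 108 CPM in WT, 92.2 to 106 in L854F and 61.4 to 88.1 in JmjC, where Pxn was lower and Hml and NimC1 overlapped with WT. The sum of 5 muscle markers was 12.9 to 50.5 CPM in WT, 2.38 to 20.1 in L854F and 3.79 to 12.6 in JmjC, and that of 4 fat body markers was 16.5 to 113, 12.4 to 118 and 16.1 to 33.8. The part of these cell types in the results on the proteasome genes was not tested. In bulk tissue, fewer cells of a type and less RNA per cell cannot be told apart.

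In WT, the canonical subunits other than Prosalpha1 were expressed within a narrow range of each other. The median level was 186 CPM per kilobase for core genes, 162 for base genes and 149.8 for lid genes. Leaving out Prosalpha1, which is treated separately, the other 31 genes lay between 101 CPM per kilobase for Rpn13 and 224 for Prosalpha2, a 2.22-fold range. The ratio of the median core to the median lid level was 1.24. When the 32 genes were ordered by level, 28 of the 31 neighbouring pairs differed by less than the larger of their SDs. The 3 exceptions were the gaps between Prosalpha2 and Prosbeta5 at the top, between Rpn3 and Rpn13, and between Rpn13 and Prosalpha1 at the bottom. Ordering by itself makes such gaps small, so this count concerns the order of the genes and not their range.

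**Figure D1:**
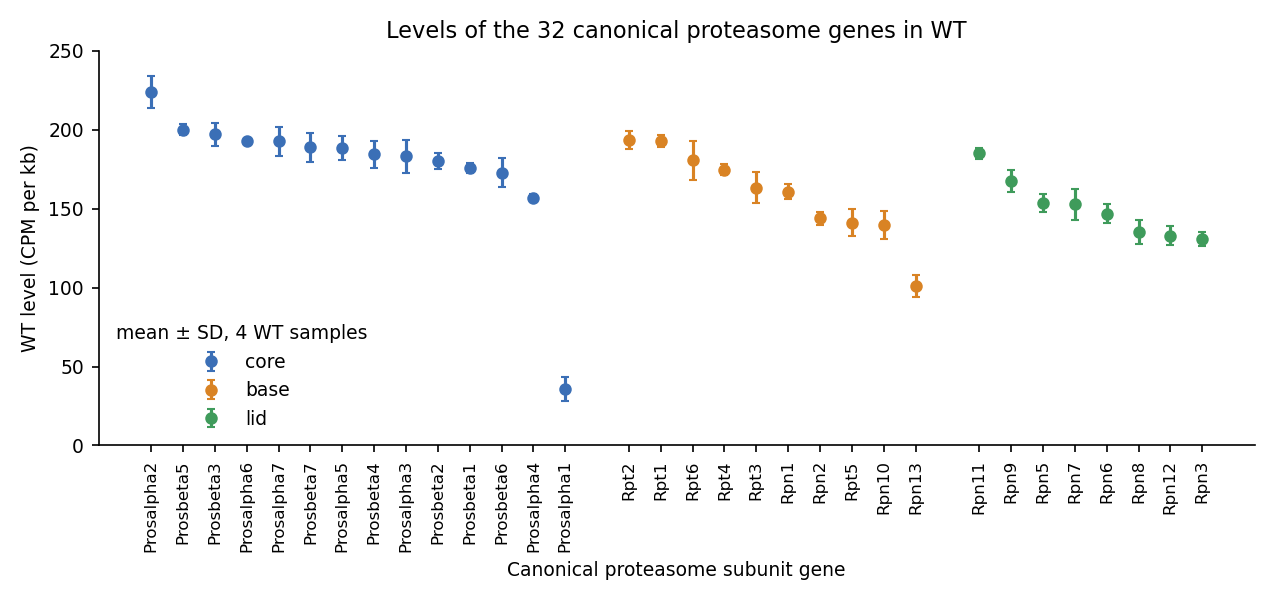
Level of each canonical proteasome gene in WT in CPM per kilobase of transcript (vertical axis from 0), grouped into core, base and lid and ordered by level within each class; points are means and bars the SD of 4 samples. Apart from Prosalpha1 at 35.8, all genes sat between 101 and 224 CPM per kilobase.

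The extremes of each class illustrate this spread. Prosalpha2 (FBgn0086134, chr3R:12431321-12432556, plus strand), an alpha-ring subunit, had the highest level per kilobase in the core. In CPM, Prosalpha2 stood at 212, 199.6, 216 and 197 in WT, 206, 216, 222 and 198 in L854F, and 196, 188, 225 and 189.7 in JmjC. The groups overlapped, and the differences from WT were 0.03 ± 0.05 on the log2 scale in L854F and -0.04 ± 0.06 in JmjC (estimate ± SE, edgeR, adjusted p = 0.817 and 0.674).

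In the base, Rpt2 (FBgn0015282, chr3R:23929873-23931558, minus strand), an ATPase, was highest per kilobase. Rpt2 had CPM values of 301, 292, 289 and 280.1 in WT, 309, 324, 304 and 285 in L854F, and 273, 279, 309 and 255 in JmjC, with overlapping groups. Rpn13 (FBgn0033886, chr2R:13958545-13960404, minus strand), a ubiquitin receptor, was lowest per kilobase. Its values in CPM were 153, 149, 131 and 147 in WT, 169, 177, 168 and 145 in L854F, and 149, 144, 159.6 and 139 in JmjC. The L854F samples of Rpn13 reached the highest values, but replicate 4 fell below 3 of the WT samples, and the difference of 0.18 ± 0.07 missed the threshold (edgeR, adjusted p = 0.174). In the lid, Rpn11 was highest with 185 CPM per kilobase and Rpn3 lowest with 131, and both are described with the called genes.

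Prosalpha1 (FBgn0263121, chr2R:7827303-7828678, minus strand), an alpha-ring subunit, was listed at only 35.8 CPM per kilobase in WT. In CPM, Prosalpha1 stood at 29.6, 28.3, 38.3 and 43.7 in WT, 27.8, 22.5, 23.8 and 34.0 in L854F, and 36.7, 21.3, 40.5 and 19.2 in JmjC. It also varied most among the canonical genes in WT, with a coefficient of variation (CV) of 20.9%, while no other canonical gene exceeded 6.78%. A tandem copy that the deposited tables list as CG30382 and RefSeq names Prosalpha1R stood at 277 ± 10.7 CPM in WT, so reads of the pair can be split between them by the counting. Prosalpha1 held between 6.77% and 14.3% of the pair's counts. Summed, the pair gave 311 ± 3.74 CPM in WT, 322 ± 16.9 in L854F and 288 ± 32.3 in JmjC (mean ± SD, n = 4), or 319 CPM per kilobase in WT. The sum per kilobase lay above the 224 of Prosalpha2, so alone or summed Prosalpha1 was outside the range of the other 31 genes. Prosalpha1 alone was -0.37 ± 0.16 on the log2 scale in L854F against WT, whereas the sum was 0.05 ± 0.05 (edgeR, adjusted p = 0.222 and 0.697). The value of Prosalpha1 alone is therefore uncertain, and the direction turned when the copy was included.

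In L854F against WT, no member passed the test. Of 34 members with enough counts to be tested, 0 were called by edgeR at an adjusted p under 0.05, where 5.54% of all 9105 genes were called, and 8 members (23.5%) had an unadjusted p under 0.05, against 18.98% of all genes. DESeq2 called 1 member, where 705 of 13758 genes with any count (5.12%) were called. The edgeR share is over genes that passed the filter, so it and the DESeq2 share have unlike bases. In the authors' deposited table, 1 of 45 members was called, and the share of all genes called there was not counted. Most canonical genes nevertheless had slightly higher values: 29 of 32 had a positive estimate, with a median log2 difference of 0.08, against 50.4% of all genes and a median of 0.001. The median was 0.07 for core, 0.09 for base and 0.11 for lid genes. Between the genotypes, 3 members had groups that did not overlap, where 12.7% of all genes had such groups.

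These 3 were Prosalpha6, Rpn6 and Prosbeta2, named after their values were seen. Prosbeta2 (FBgn0023174, chr3L:14999951-15001319, plus strand) carries the trypsin-like protease site. Prosbeta2 had CPM values of 187, 184, 193 and 181 in WT, 208, 216, 210.2 and 199 in L854F, and 178, 168, 205 and 166 in JmjC. Every L854F sample exceeded every WT sample. The difference was 0.16 ± 0.05 (edgeR, adjusted p = 0.0678). DESeq2 gave 0.16 with an adjusted p of 0.0123, and the authors' deposited table lists 0.16 with an adjusted p of 0.0172, so the call depended on the tool.

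In JmjC against WT, 5 of 34 members were called, which is 14.7% and thus close to the 17.3% called among all 9244 genes. The 4 that fell were Prosbeta5, Rpt5, Rpn2 and the paralog Rpt6R, where 7.67% of all genes were called lower. The paralog Rpt3R rose, where 9.66% of all genes were called higher. Of the 32 canonical genes, 26 had lower values than in WT, against 4563 of all 9244 genes. The median canonical log2 difference was -0.06, against a median of 0.003 over all genes. The medians of core, base and lid genes were -0.05, -0.08 and -0.08, and 8 of 8 lid genes had negative estimates although none was called. In 4 members the groups did not overlap, where 22.7% of all genes did not. In the authors' deposited table, 5 of 44 members had an adjusted p under 0.05 in this comparison, namely Prosbeta5, Rpn2, Rpt5, Rpt3R and Rpt6R. The share of all genes called there was not counted.

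The comparison of the mutants with each other held the largest number of called members. L854F exceeded JmjC in 30 of 32 canonical genes, with a median log2 difference of 0.16, against 50.3% of all genes and a median of 0.002. In all, 9 of 34 members (26.5%) were called, where 16.0% of all 9207 genes were. Of these, 8 were higher in L854F (7.20% of all genes) and 1, Rpt3R, was lower (8.80% of all genes). By class, 1 of 14 core, 3 of 10 base and 3 of 8 lid genes were called, and the median differences were 0.13, 0.18 and 0.19. An unadjusted p under 0.05 was found for 53.1% of the canonical genes and 30.4% of all genes. Groups did not overlap for 10 members, where 20.7% of all genes did not. All 3 comparisons share samples, so they are not independent of each other.

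Deviations of same-numbered samples of the mutants correlated weakly (0.133 to 0.210), a pairing that no label gives. With the replicate number as a block, 17 members were called in L854F against JmjC, where 22.1% of all genes were. The 17 were Prosalpha3, Prosalpha6, Prosbeta2, Prosbeta5, Prosbeta7, Rpt1, Rpt5, Rpn1, Rpn2, Rpn10, Rpn3, Rpn6, Rpn8, Rpn11, Rpn12 and Rpt6R, which were higher in L854F, and Rpt3R, which was lower.

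**Figure D2:**
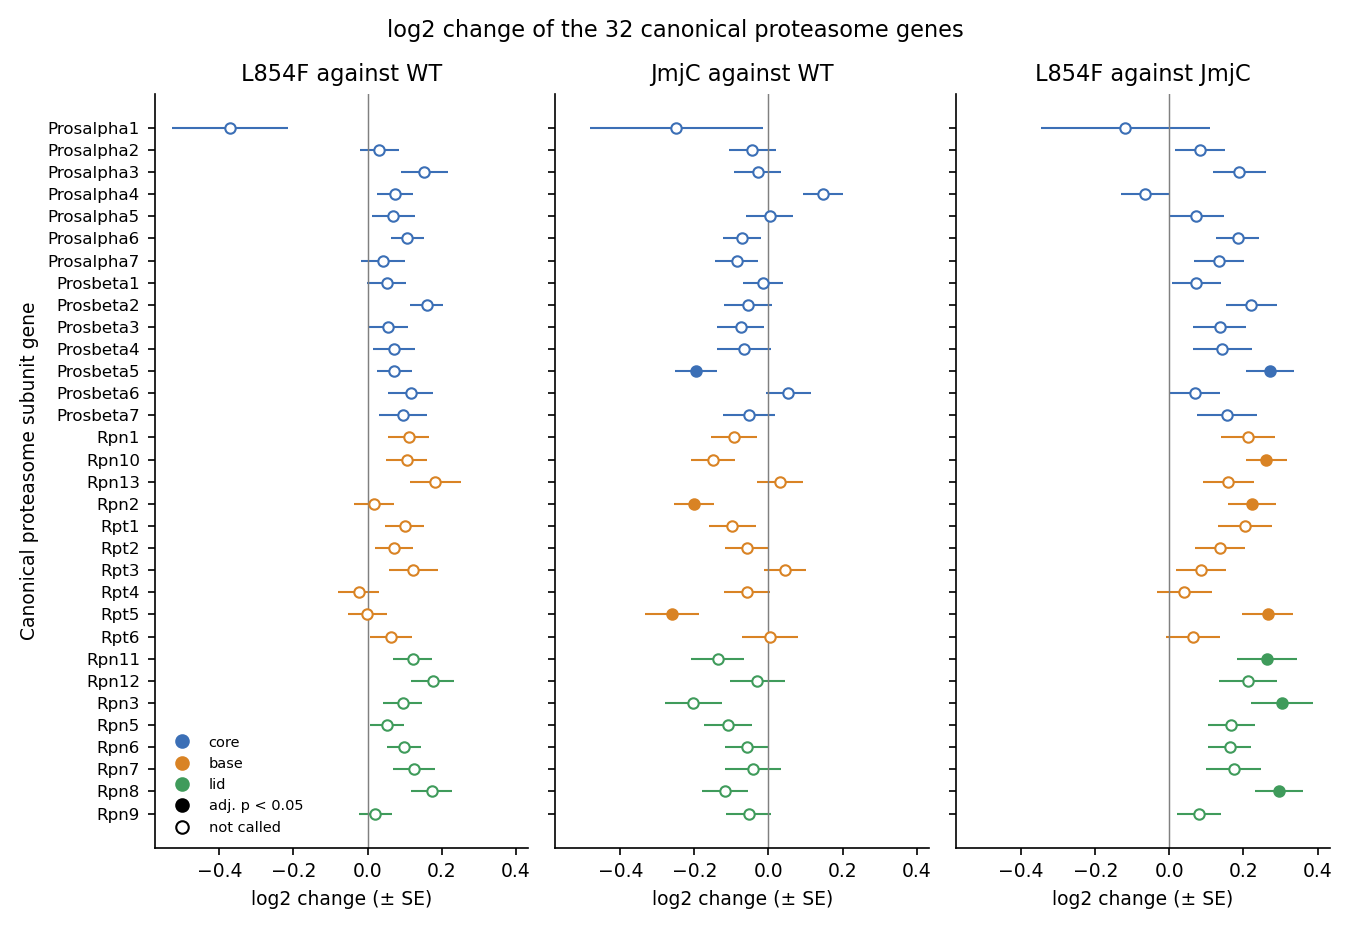
Difference of each canonical gene on the log2 scale (horizontal axis, estimate ± SE from edgeR) in L854F against WT, JmjC against WT and L854F against JmjC; colour gives the class and filled points have an adjusted p under 0.05. In L854F against JmjC, 30 of 32 points lie right of 0 and 7 are filled; in JmjC against WT, 26 lie left of 0 and 3 are filled.

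Among the core genes, Prosbeta5 (FBgn0029134, chr2R:10819978-10821178, plus strand), which carries the chymotrypsin-like protease site, was the only one called in the main edgeR fit. Its values in CPM were 234, 226, 227 and 224 in WT, 242, 237, 253 and 226 in L854F, and 202, 191, 219 and 183 in JmjC. All 4 JmjC samples lay below all 8 others, with means of 228 ± 4.19, 239 ± 11.4 and 199 ± 15.8 CPM in WT, L854F and JmjC (SD, n = 4). The gene fell by 12.6% in JmjC against WT, a log2 difference of -0.19 ± 0.06 (edgeR, adjusted p = 0.0386), and L854F exceeded JmjC by 0.27 ± 0.06 (adjusted p = 0.0159). The JmjC against WT call was lost on leaving out JmjC replicate 1, 2 or 4 or any WT replicate, and the L854F against JmjC call on leaving out JmjC replicate 2. Its exons share 81 bases with Lsm10 on the opposite strand, and the strand setting of the counting is not given in the sources used here. Other members share exon bases with an opposite-strand gene too, such as Prosbeta2 with Reck (82 bases), and the largest share was 182 of 1404 exon bases, in Rpt6.

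In the base, Rpt5 (FBgn0028684, chr3R:23752876-23754623, plus strand), an ATPase of the ring that contacts the core, had the largest fall among canonical genes in JmjC. In CPM, Rpt5 stood at 230.2, 229, 247 and 213 in WT, 227, 232, 237 and 222 in L854F, and 195, 182, 217 and 173 in JmjC. JmjC replicate 3 reached into the WT range, while all JmjC samples lay below all L854F samples. The difference was -0.26 ± 0.07 in JmjC against WT (edgeR, adjusted p = 0.0305), and L854F exceeded JmjC by 0.27 ± 0.07 (adjusted p = 0.0240). The JmjC against WT call was lost without JmjC replicate 1, 2 or 4 or WT replicate 1, 2 or 3. The other call was lost without replicate 1, 2 or 4 of JmjC or 1, 2 or 3 of L854F.

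Rpn2 (FBgn0028692, chr3R:29153524-29157255, plus strand) encodes a scaffold subunit of the base. Rpn2 had CPM values of 494, 486, 488 and 464 in WT, 517, 504, 479 and 457 in L854F, and 439.6, 424, 436 and 382 in JmjC. All JmjC samples were lower than every WT and L854F sample. The difference was -0.20 ± 0.05 in JmjC against WT (edgeR, adjusted p = 0.0279), and L854F exceeded JmjC by 0.22 ± 0.06 (adjusted p = 0.0375). The JmjC against WT call was lost without JmjC replicate 2 or WT replicate 1, 2 or 3, and the other with library totals and without JmjC replicate 1, 2 or 4 or L854F replicate 1, 2 or 3.

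Rpn10 (FBgn0015283, chr3L:21537000-21538582, plus strand) encodes a ubiquitin receptor that sits between base and lid. Its values in CPM were 205, 189, 175 and 189 in WT, 206, 210.3, 207 and 193 in L854F, and 171, 168, 184 and 161 in JmjC. L854F and JmjC did not overlap, and WT spanned the gap between them. L854F exceeded JmjC by 0.26 ± 0.06 (edgeR, adjusted p = 0.00905), which is the smallest adjusted p of a canonical member, and this call held under all 15 alternatives. Neither mutant differed from WT at the threshold, with 0.11 ± 0.06 in L854F (adjusted p = 0.347) and -0.15 ± 0.06 in JmjC (adjusted p = 0.112).

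The lid has a deubiquitinase pair and several scaffold subunits. Rpn11 (FBgn0028694, chr2L:5058404-5059790, minus strand) encodes the metalloprotease that cleaves ubiquitin chains off the substrate. In CPM, Rpn11 stood at 228, 220.0, 220.3 and 226 in WT, 242, 262, 244 and 225 in L854F, and 208, 201, 229.8 and 175 in JmjC. JmjC replicate 3 and L854F replicate 4 overlapped, and the other samples of the mutants did not. L854F exceeded JmjC by 0.26 ± 0.08 (edgeR, adjusted p = 0.0468), close to the threshold, and the call was lost with library totals in place of TMM factors and without JmjC replicate 1, 2 or 4 or L854F replicate 1, 2 or 3.

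Rpn8 (FBgn0002787, chr2R:24400028-24404527, plus strand) encodes the catalytically inactive partner of Rpn11. Rpn8 had CPM values of 209.6, 186, 202 and 189 in WT, 229, 233, 218 and 207 in L854F, and 181, 174, 200.1 and 170.2 in JmjC. Every L854F sample exceeded every JmjC sample, and WT overlapped both. The difference of 0.30 ± 0.06 between the mutants (edgeR, adjusted p = 0.00991) kept its call under all 15 alternatives.

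Rpn3 (FBgn0261396, chr2L:19051790-19053681, plus strand) encodes a lid scaffold subunit. Its values in CPM were 221, 211, 227 and 227 in WT, 242, 253, 228 and 222 in L854F, and 199, 191, 217 and 163 in JmjC. Again the mutants did not overlap, and JmjC replicate 4 was the lowest of all samples. L854F exceeded JmjC by 0.30 ± 0.08 (edgeR, adjusted p = 0.0300), and the call was lost without JmjC replicate 1 or 2 or L854F replicate 1 or 2. In JmjC against WT, the difference was -0.20 ± 0.08 (adjusted p = 0.0963), and without JmjC replicate 3 it was -0.26 with an adjusted p of 0.0263.

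**Figure D3:**
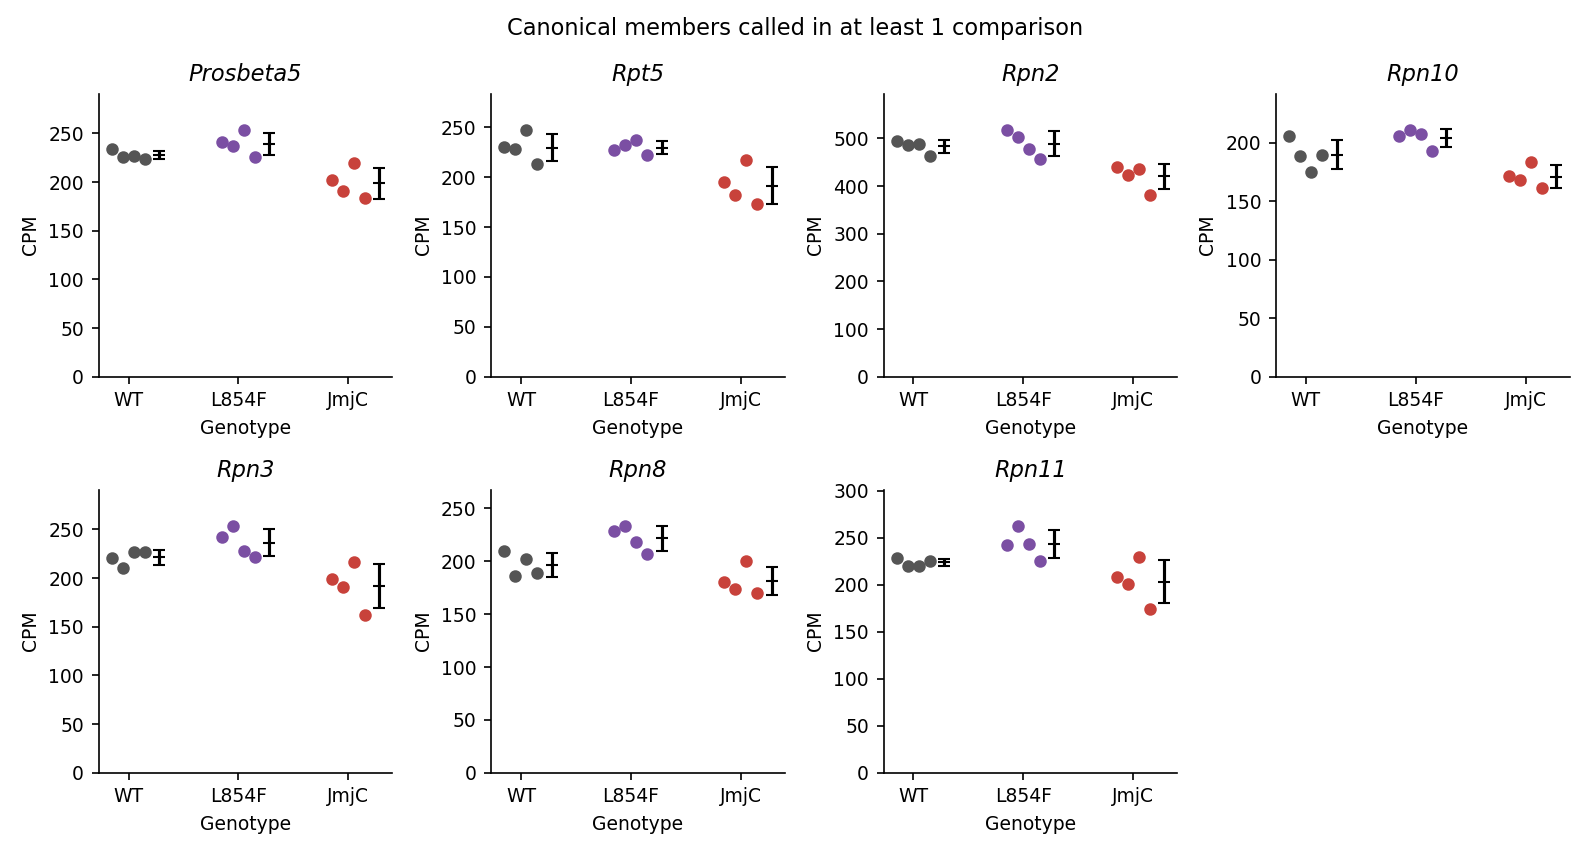
Level in CPM (vertical axes from 0) of the 7 canonical genes called in at least 1 comparison in the main edgeR fit, by genotype. Points are samples in order of replicate number, and the bar beside them is the mean ± SD of 4 samples. For Prosbeta5 and Rpn2 all JmjC samples lie below all WT and L854F samples.

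The remaining 25 canonical genes passed the test in no comparison in the main edgeR fit. With the replicate block, Prosalpha3, Prosalpha6, Prosbeta2, Prosbeta7, Rpt1, Rpn1, Rpn6 and Rpn12 passed it in L854F against JmjC. DESeq2, without the block, called Prosalpha6, Prosbeta2, Rpt1, Rpn1 and Rpn6 there. It called 1789 of 12909 genes with any count (13.9%), a wider base than that of the edgeR shares. Other alternatives called some of the 25 as well, such as Prosalpha4 and Rpn5 in JmjC against WT on leaving out a JmjC replicate. Estimates of the 25 genes in L854F against WT, apart from Prosalpha1, ran up to 0.18. Prosalpha4, an alpha-ring subunit, went the other way in JmjC, with 0.15 ± 0.06 against WT (edgeR, adjusted p = 0.0933), and Prosbeta6, Rpn13, Rpt3, Rpt6 and Prosalpha5 were the other genes with positive estimates there.

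The canonical genes tended to be high or low in the same libraries. JmjC replicate 4 was the lowest of all 12 samples for 24 of 32 genes, and JmjC replicate 3 was the highest JmjC sample for 31 of 32. Within L854F, replicate 4 was lowest for 27 of 32. The median CV was 4.20% in WT, 5.93% in L854F and 8.48% in JmjC, compared with 7.27%, 8.09% and 7.55% over all tested genes. Canonical genes together took 0.687% to 0.729% of counts in WT, 0.688% to 0.771% in L854F and 0.610% to 0.742% in JmjC. The neuron marker sum was highest in JmjC replicate 4 (3773 CPM) and, within JmjC, lowest in replicate 3 (3169 CPM). Single markers differed: brp was at 858 CPM in JmjC replicate 4 and 892 in replicate 1, and elav was highest in L854F replicate 4 (1008 CPM). The glial marker sum was also highest in JmjC replicate 4 (1188 CPM), but within JmjC it was lowest in replicate 1 (1042 CPM). The part of either sum in the result was not tested.

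The number of calls depended on single libraries. In JmjC against WT it was 3 without JmjC replicate 1, 2 without replicate 2, 8 without replicate 3 and 4 without replicate 4, and 2 without WT replicate 1, 2 or 3, where 12.3% to 18.2% of all genes were called. In L854F against JmjC it was 4, 3, 16 and 5 without JmjC replicates 1, 2, 3 and 4, and 4 without L854F replicate 1 or 2. In these fits, 10.5% to 18.6% of all genes were called. Leaving out L854F replicate 3 gave 4 canonical calls, and leaving out L854F replicate 4 gave 10 (14.4% and 13.1% of all genes). Rpt3R and Rpt6R were called in both of these fits. Without JmjC replicate 4, the median canonical difference in JmjC against WT was -0.02, with 11 of 32 genes higher, and without JmjC replicate 3 it was -0.11. For L854F against JmjC, the medians without these replicates were 0.12 and 0.21.

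**Figure D4:**
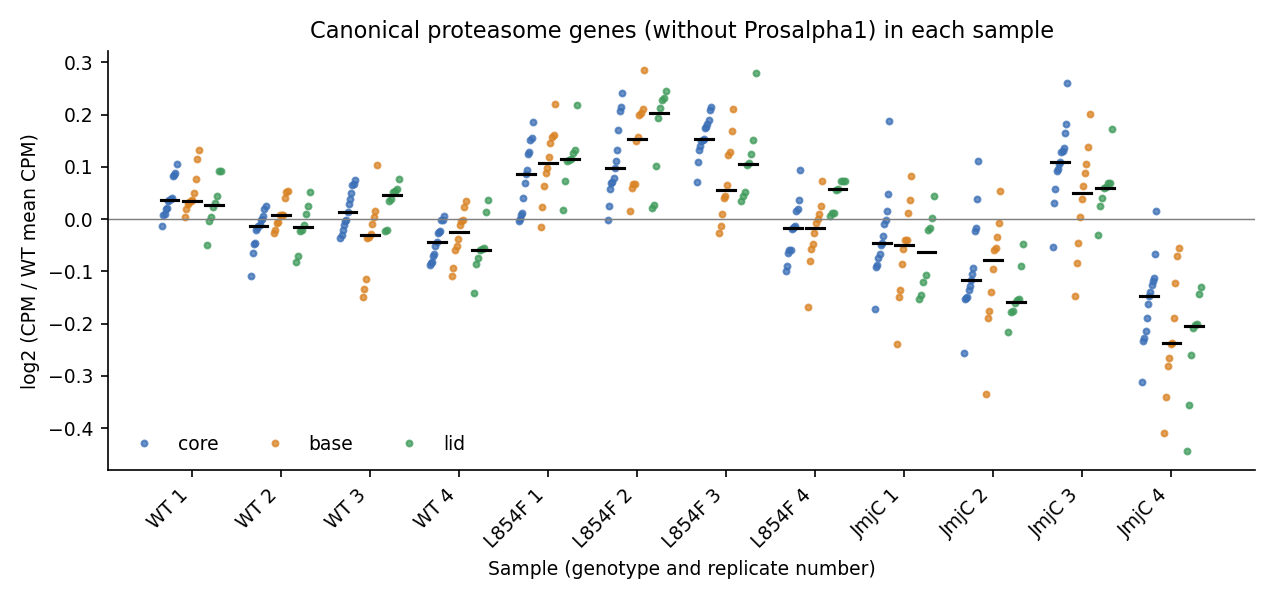
Level of each canonical gene in each sample relative to its WT mean on the log2 scale (vertical axis), with samples along the horizontal axis; points are genes coloured by class, black bars are class medians, and Prosalpha1 is left out. In JmjC replicate 4 the class medians lie lowest, and in JmjC replicate 3 they lie above the WT mean.

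The proportion of core to lid counts was slightly higher in every JmjC sample than in any WT sample. The ratio of summed core to summed lid CPM was 1.37, 1.34, 1.34 and 1.37 in WT, 1.33, 1.32, 1.40 and 1.30 in L854F, and 1.39, 1.40, 1.41 and 1.43 in JmjC. All JmjC samples lay above all WT samples, while L854F replicate 3 reached the JmjC range. The ratio of core to base was 0.816 to 0.865 in WT, 0.819 to 0.893 in L854F and 0.840 to 0.890 in JmjC, with overlap. These ratios were not divided by gene length, so longer genes weigh more and they are not ratios of transcripts. They describe the members and were given no test.

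The R and T paralogs were far below the canonical genes. Of 13, only the ATPase paralogs Rpt3R and Rpt6R passed the filter on low counts, and since a gene can pass through the group in which it is high, their number says nothing about the class. The counts of Rpt3R (FBgn0037742, chr3R:9754735-9756510, minus strand) were 31, 36, 45 and 31 in WT, 32, 28, 28 and 36 in L854F, and 86, 74, 77 and 74 in JmjC. The JmjC samples all lay above the other 8. In CPM, the means were 2.16 ± 0.384 in WT, 1.94 ± 0.182 in L854F and 4.79 ± 0.318 in JmjC (SD, n = 4). Rpt3R rose 2.21-fold in JmjC against WT, a log2 difference of 1.14 ± 0.18 (edgeR, adjusted p = 0.00123). L854F against WT gave -0.16 ± 0.21 (adjusted p = 0.763), and L854F against JmjC -1.30 ± 0.17 (adjusted p = 0.000396). Both calls held under all 15 alternatives.

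As a share of the counts of Rpt3, the ATPase it is named after, Rpt3R reached 1.83% to 2.08% in JmjC, compared with 0.755% to 1.23% in WT and 0.636% to 0.952% in L854F. Rpt3 itself was not called, with 0.04 ± 0.06 in JmjC against WT (edgeR, adjusted p = 0.636). In CPM, Rpt3 stood at 244, 247, 217 and 244 in WT, 266, 275, 268 and 229 in L854F, and 252, 247, 256 and 227 in JmjC, and the groups overlapped. Of 15 listed testis markers, 11 were in the tables, and bam and mia were higher in every JmjC sample than in any other. The summed level of the 11 was 29.3 to 34.6 CPM in JmjC, 13.9 to 18.8 in WT, and at most 17.2, with a median of 13.6, in L854F. Most of this sum came from mia and bam. The marker can was at 0.549 to 1.22 CPM in JmjC and 0.948 to 2.75 in WT, and aly, ocn, janB, dj, Mst87F, Mst98Ca, Mst98Cb and fzo were at or below 0.83 CPM in every sample. The part of these markers in the rise of Rpt3R was not tested. Its exons share 20 bases with Alg12 on the opposite strand, a gene that was not called in JmjC against WT (0.13 ± 0.06, adjusted p = 0.182). Tti1, on its other side, fell by 0.43 ± 0.08 (adjusted p = 0.00337), and both neighbours were looked up after the values were seen.

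Rpt6R (FBgn0039788, chr3R:30582198-30583697, minus strand) went the other way. Its counts were 52, 43, 47 and 43 in WT, 83, 44, 28 and 35 in L854F, and 22, 23, 20 and 6 in JmjC. All JmjC samples were below all others, L854F replicate 1 was the highest of all, and JmjC replicate 4 the lowest. In CPM, the means were 2.79 ± 0.213 in WT, 2.95 ± 1.47 in L854F and 1.09 ± 0.488 in JmjC (SD, n = 4). Rpt6R fell in JmjC against WT by 1.35 ± 0.32 on the log2 scale (edgeR, adjusted p = 0.0153), and this call held under all 15 alternatives. L854F exceeded JmjC by 1.44 ± 0.42 (adjusted p = 0.0375), a call that was lost on leaving out any 1 of the JmjC replicates, or L854F replicate 1 or 2. L854F against WT gave 0.08 ± 0.30 (adjusted p = 0.930).

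As a share of the counts of Rpt6, the ATPase it is named after, Rpt6R was 1.07% to 1.12% in WT, 0.672% to 1.92% in L854F and 0.160% to 0.603% in JmjC. In CPM, Rpt6 was at 278, 250.1, 249 and 238 in WT, 265, 266, 276 and 252 in L854F, and 256, 237, 291 and 233 in JmjC, with overlapping groups and a difference of 0.00 ± 0.08 in JmjC against WT (edgeR, adjusted p = 0.974). Its exons share 182 bases with CG1801 on the opposite strand.

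**Figure D5:**
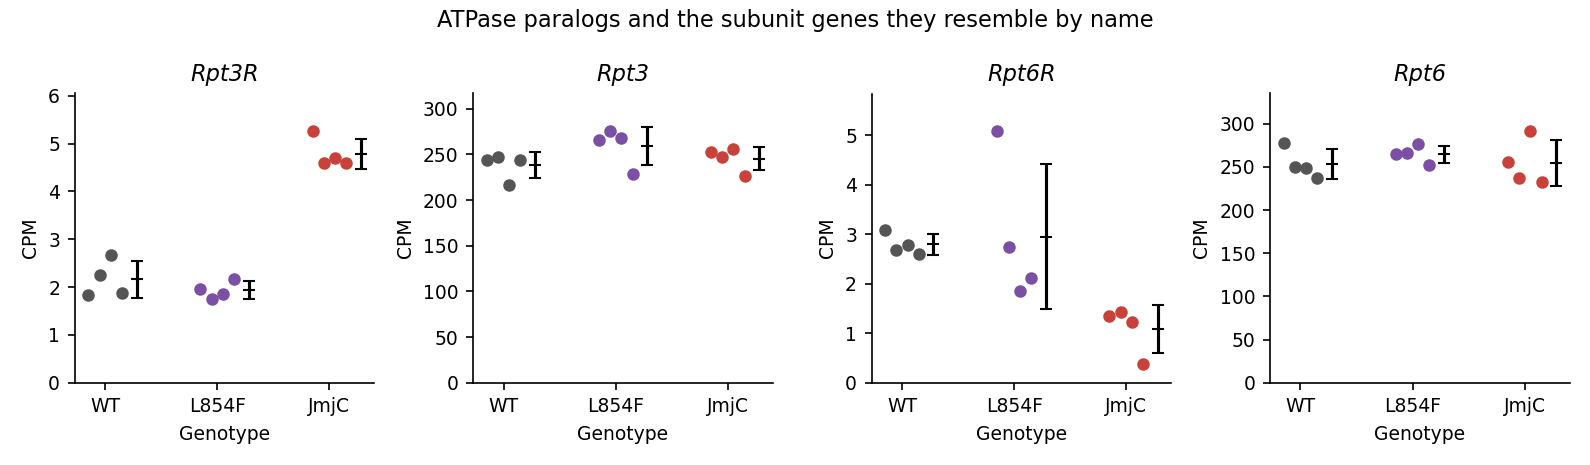
Level in CPM (vertical axes from 0, with their own scale for each gene) of Rpt3R, Rpt3, Rpt6R and Rpt6 by genotype; points are samples in order of replicate number, and the bar beside them is the mean ± SD of 4 samples. Rpt3R is above and Rpt6R below all WT and L854F samples in all 4 JmjC samples, while the groups overlap for Rpt3 and Rpt6.

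The other 11 paralogs did not pass the filter and were given no test. Their totals over the 12 samples ran from 1 to 28 counts, none exceeded 8 counts in a sample, and all 11 together had 105 counts, of which 26 were in WT, 35 in L854F and 44 in JmjC. A floor of 3 counts corresponds to 0.178 to 0.199 CPM, and apart from Prosalpha4T1, Prosalpha4T2, Prosbeta2R2 and Rpn12R none of the 11 exceeded 3 counts in any sample. Counts of the alpha and beta copies, which resemble core subunits, follow.

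Prosalpha4T2, with the highest total of the 11, had counts of 1, 2, 3 and 1 in WT, 0, 0, 1 and 2 in L854F, and 5, 1, 4 and 8 in JmjC. Prosalpha4T1 had 0, 0, 0 and 0 in WT, 0, 0, 4 and 0 in L854F, and 0, 0, 0 and 2 in JmjC. Prosalpha6T, which in the Drosophila testis takes the place of Prosalpha6 during sperm formation, had 1 count in WT replicate 3 and 0 elsewhere. Only Prosalpha4T2 among the alpha copies was found in every JmjC sample.

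Among the beta copies, Prosbeta2R2 had counts of 2, 0, 2 and 2 in WT, 2, 3, 4 and 0 in L854F, and 1, 0, 3 and 3 in JmjC. Prosbeta2R1 had 0, 0, 1 and 0 in WT, 1, 0, 0 and 1 in L854F, and 3, 0, 2 and 3 in JmjC. Of these copies of the trypsin-like subunit, Prosbeta2R1 had 8 of its 11 counts in JmjC, and Prosbeta2R2 had 6, 9 and 7 counts in WT, L854F and JmjC. Prosbeta5R2 had 0, 0, 2 and 0 in WT, 0, 0, 0 and 3 in L854F, and 1, 1, 0 and 0 in JmjC. Prosbeta5R1 had 1 count in WT replicate 3 and 2 in L854F replicate 4. Prosbeta4R1 had 2 counts, both in L854F replicate 4, and is listed only in the L854F table.

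Among the copies of cap subunits, Rpn12R had counts of 1, 1, 1 and 1 in WT, 0, 3, 1 and 4 in L854F, and 0, 0, 0 and 0 in JmjC. Rpt4R had 1, 1, 0 and 2 in WT, 1, 0, 0 and 0 in L854F, and 0, 0, 0 and 3 in JmjC, and Rpn13R had 0, 0, 0 and 0 in WT, 0, 0, 1 and 0 in L854F, and 1, 0, 1 and 2 in JmjC. Rpn12R was found in every WT sample and in 0 of 4 JmjC samples, at counts too low for a comparison.

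Lists of genes that work with the proteasome were read against the shares called among all genes, which were 5.54% for L854F and 17.3% for JmjC, each against WT, and 16.0% between L854F and JmjC. The last stood beside 14.3%, 7.69% and 12.5% called there among associated factors, ubiquitin supply genes and the COP9 signalosome. Of 7 proteasome-associated factors, 0 were called against WT in either mutant, and Txl, a proteasome-bound thioredoxin-like protein, was higher in L854F against JmjC (0.24 ± 0.07, edgeR, adjusted p = 0.0386). Of 13 genes for ubiquitin supply and shuttling, 0 were called against WT, and the polyubiquitin gene Ubi-p5E was lower in L854F against JmjC (-0.23 ± 0.06, adjusted p = 0.0342). Among the 4 regulators, which include the transcription factor cnc, known to activate proteasome genes, 0 were called in any comparison, and cnc gave 0.03, -0.16 and 0.19 in L854F against WT, JmjC against WT and L854F against JmjC. The COP9 signalosome, a complex built like the lid, had 8 of 8 genes higher in L854F against JmjC, where 50.3% of all genes were higher. Its median difference was 0.09, and CSN1b was called (0.29 ± 0.06, edgeR, adjusted p = 0.00919).

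A wider list of genes whose annotation mentions the proteasome had 6 of 122 called in L854F against WT (4 higher), 18 of 124 in JmjC against WT (14 higher) and 13 of 123 in L854F against JmjC (6 higher). Those with the smallest adjusted p included CG32625 at 2.45 ± 0.23 in JmjC against WT (edgeR, adjusted p = 4.42e-05), CG7694 at 0.97 ± 0.11 (adjusted p = 0.000123), and NimC4, a phagocytosis receptor, at 2.12 ± 0.28 (adjusted p = 0.000411). In L854F against WT they were the kinase gene fray at 0.37 ± 0.05 (adjusted p = 0.00152), Trc8, a ubiquitin ligase, at 0.47 ± 0.07 (adjusted p = 0.00204), and CG7694 at 0.58 ± 0.10 (adjusted p = 0.00537). The list's calls amounted to 4.92%, 14.5% and 10.6%, under the shares of all genes in the same comparisons.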

How the data were processed

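RNA was measured by stranded, poly(A)-selected sequencing of 12 ventral nerve cord samples, 4 per genotype, with paired reads of 150 bases. Per the submitters' processing notes, Bowtie2 2.2.5, RSEM 1.2.12 and DESeq2 were used with the build dm6. The authors deposited an expected count per gene and sample and tables of their own log2 changes and p-values. Here, the counts were rounded and tested with edgeR 4.0.16 (R 4.3.3; TMM scaling, filterByExpr with a minimum count of 10 and a minimum total of 15, quasi-likelihood F-test, Benjamini-Hochberg over all genes) on the 8 samples of each comparison. This edgeR fit is the main fit. A gene is called at an adjusted p under 0.05. The alternatives were DESeq2 1.42.0, RLE factors, library totals, no filter, robust dispersion, a fit over all 12 samples, the replicate block, leaving out each replicate, and the sum of Prosalpha1 and CG30382. Coordinates are from the BDGP6.54 annotation, in dm6 coordinates. The floor of 3 counts covers counting error only, and SDs and SEs cover the spread between samples. SEs of edgeR estimates were computed here as the absolute log2 coefficient before edgeR's shrinkage, divided by the square root of the F statistic. The fits were checked on simulated counts.

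Members, classes and companion lists were chosen with earlier results of these data known. Values in every sample are given for called members, paralogs, and the highest and lowest member of each class. From the companion lists, up to 3 called genes per list and comparison are named.

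Deviations of same-numbered samples from their group means correlated at 0.133 to 0.210 between L854F and JmjC. Unlike-numbered samples of these groups gave -0.296 to 0.126. The margin was narrow, and this pairing comes from the data alone. No label says that the numbers mark a shared batch, so the main fit did not pair samples. All SEs and adjusted p-values of the main fit therefore ignore the pairing. The replicate block, which pairs same-numbered samples, was run as an alternative. Against WT, the correlations of same-numbered samples were 0.0144 to 0.149 for L854F and -0.0755 to 0.155 for JmjC. Unlike-numbered samples reached 0.0546 and 0.157 there, so the ranges overlapped and the numbers were not taken to pair samples with WT.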

Additional observations from a re-analysis of the deposited data

Results flagged for a closer look

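Of 111 groups of 4 samples, those of each tested member and of the summed core, base and lid levels, 5 held a sample that stood far from the other 3, where chance flags about 1 in 20 groups, or 5.55. Rpt3 was lowest in WT replicate 3 with 217 CPM. Prosalpha5 was lowest in L854F replicate 4 with 157 CPM. Prosbeta3 and Prosbeta4, both beta-ring subunits, were highest in L854F replicate 3 with 204 and 166 CPM. Rpt3R was highest in JmjC replicate 1 with 5.26 CPM, and the other 3 JmjC samples also lay above every WT and L854F sample.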

How the results depend on the processing

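With 4 samples per group, the SEs of canonical log2 differences other than Prosalpha1 were 0.045 to 0.083, and at most 28 counts stood behind an untested paralog. The number of members called in L854F against WT was 1 with DESeq2 and 0 otherwise. In JmjC against WT, 5 members were called under each scaling and test tried, 3 when only canonical genes were counted, 1 at an adjusted p under 0.01, and 2 to 8 on leaving out a replicate. In L854F against JmjC, 14 members were called with DESeq2 (13.9% of genes with any count). With the replicate block it was 17 (22.1% of genes tested) and with library totals 7 (15.8%). At an adjusted p under 0.01 it was 3, and on leaving out a replicate 3 to 16. The share of all genes called at an adjusted p under 0.01 is not given here for either comparison. The block changed no count of calls against WT. The median of lid genes in L854F against JmjC ranged from 0.16 to 0.26 on leaving out a replicate. None of the 14 called values reversed in 15 alternatives each, and 48 of those 210 values lost the call.

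Values that turned sign were all uncalled. Rpt5 in L854F against WT was 0.0010 with DESeq2, 0.00031 with RLE factors and 0.00089 with the replicate block, and -0.038 to 0.038 on leaving out a replicate. Rpn2 in that comparison ranged from -0.0094 to 0.046. Rpt6R was -0.00087 with the block and -0.32 to 0.24 on leaving out a replicate. Prosalpha1 with CG30382 added, chosen after seeing the data, was 0.046 in L854F against WT and 0.17 in L854F against JmjC. Prosalpha1 alone ranged from -0.28 to 0.076 in the latter on leaving out a replicate. The cause was not tested. Coding length taken from the annotation, also chosen after seeing the data, gave a WT core to lid ratio of 1.26. The planned coding length from a protein table was not run.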
